A study of Caenorhabditis elegans with 2 samples.

Results

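The histone genes of the nematode Caenorhabditis elegans were taken as every nuclear protein-coding gene of the WBcel235 annotation whose name starts with his-, hil- or htz-, which gave 81 genes of 19973. The binding of UNC-62, the worm member of the MEIS family of homeodomain transcription factors, was mapped in second-stage (L2) larvae by chromatin immunoprecipitation followed by sequencing (ChIP-seq). The only group was whole animals, males and females pooled, of strain OP600, genotype unc119(ed3) with the integrated transgene wgIs600, which carries unc-62 tagged with TY1, EGFP and FLAG together with unc119. It has 2 biological replicates from separate biosamples, and no second condition was measured. The protein followed was therefore the tagged transgene product in a whole-animal mixture of cell types, and the control library named in the labels was not analysed here.

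Core histones H2A, H2B, H3 and H4 form the protein spool of the nucleosome, and linker histone H1 binds the DNA that enters and leaves it. Most core histone genes of animals are copied into near-identical members, sit in clusters and are used in S phase, whereas variants such as H2A.Z and H3.3 are encoded by separate genes and can be placed into chromatin outside S phase. In C. elegans many core genes stand in head-to-head pairs, H3 beside H4 and H2A beside H2B, with a short shared stretch between their start codons.

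By the product names of RefSeq, except for his-24, the 81 genes comprise 9 H1 genes (his-24 and the 8 hil genes), 17 H2A, 1 H2A.Z (htz-1), 16 H2B, 15 H3, 5 of H3.3 type (his-69, his-70, his-71, his-72 and his-74) and 16 H4 genes, with 2 genes (his-39 and his-73) left unplaced. The product name of his-24 gives no class, so it was placed with H1 by its symbol. That of hil-8, an H15 domain-containing protein, was counted as H1. A gene was called clustered when its body lay within 5000 bp of another histone gene, and lone otherwise. There were 67 clustered genes in 14 runs and 14 lone genes. Of the runs, 10 held 4 or more genes (58 genes, up to 13 in a row) and 4 held 2 or 3 genes (9 genes). The coding sequences of 36 genes were identical to that of at least 1 other histone gene, and all 36 lay in runs of 4 or more.

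A set of 5 stretches of DNA shows the kinds of histone locus on which the results turn. The first 3 are the 300 bases around the summit of the strongest histone gene peak (his-37), of the htz-1 peak and of the his-61 and his-62 peak, the highest in any run of 4 or more genes. The last 2 are whole intervals between the 5' ends of head-to-head pairs that occur in more than 1 identical copy: his-10/his-9 of the largest run and his-20/his-19. All were read 5' to 3' on the plus strand of the ce11 (WBcel235) genome sequence from RefSeq, and capitals mark every match, on either strand, to TGACAG (the MEIS core), to GAGAGA, to the TATA box TATAAA, to the NF-Y site CCAAT or to the word GGGGACAC.
his-37 peak, chrV:9546858-9547157: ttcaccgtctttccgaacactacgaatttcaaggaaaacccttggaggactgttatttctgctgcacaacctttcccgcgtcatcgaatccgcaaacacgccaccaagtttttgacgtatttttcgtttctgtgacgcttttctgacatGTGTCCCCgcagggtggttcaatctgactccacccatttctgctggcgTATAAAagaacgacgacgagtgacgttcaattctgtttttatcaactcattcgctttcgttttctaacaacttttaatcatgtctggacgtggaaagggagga
htz-1 peak, chrIV:4445791-4446090: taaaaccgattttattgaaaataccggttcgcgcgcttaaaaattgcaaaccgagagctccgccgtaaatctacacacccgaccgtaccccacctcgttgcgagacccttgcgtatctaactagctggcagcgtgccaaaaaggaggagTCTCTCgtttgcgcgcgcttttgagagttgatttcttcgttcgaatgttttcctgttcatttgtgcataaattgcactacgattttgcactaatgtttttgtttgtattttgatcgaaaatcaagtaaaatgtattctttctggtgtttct
his-61 and his-62 peak, chrIV:7486272-7486571: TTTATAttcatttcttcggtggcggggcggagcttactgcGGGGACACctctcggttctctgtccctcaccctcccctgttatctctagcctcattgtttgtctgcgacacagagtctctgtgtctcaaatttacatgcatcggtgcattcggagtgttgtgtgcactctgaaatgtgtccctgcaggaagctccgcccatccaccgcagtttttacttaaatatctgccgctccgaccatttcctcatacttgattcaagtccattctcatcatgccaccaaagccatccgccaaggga
his-10/his-9 interval, chrII:13823376-13823647: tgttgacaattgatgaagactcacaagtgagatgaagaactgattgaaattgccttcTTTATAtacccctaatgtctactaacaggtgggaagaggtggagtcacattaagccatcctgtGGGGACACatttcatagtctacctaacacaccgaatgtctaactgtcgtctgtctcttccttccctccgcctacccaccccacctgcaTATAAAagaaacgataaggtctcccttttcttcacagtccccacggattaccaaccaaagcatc
his-20/his-19 interval, chrV:8895473-8895764: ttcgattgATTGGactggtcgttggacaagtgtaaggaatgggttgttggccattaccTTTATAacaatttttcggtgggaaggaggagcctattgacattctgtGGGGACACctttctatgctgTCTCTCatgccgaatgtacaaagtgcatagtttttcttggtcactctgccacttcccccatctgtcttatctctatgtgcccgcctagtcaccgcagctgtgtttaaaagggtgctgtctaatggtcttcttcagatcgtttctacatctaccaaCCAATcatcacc

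Every 36-base word of both pair intervals also occurs elsewhere in the genome. The his-10/his-9 interval of 272 bp has the same sequence as those of 2 other pairs of its run, his-14/his-13 and his-25/his-26. The his-20/his-19 interval of 292 bp has the same sequence as 3 other pairs. A short read from such a stretch cannot be placed at 1 copy, and the sources used here do not give the authors' treatment of such reads. The 3 peak windows, in contrast, consist of words found once. The sequence GGGGACAC or its reverse complement stands in 4 of the 5 stretches, and the htz-1 peak is the one without it.

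A candidate peak of the pooled list (28005 candidates from both replicates together, background peaks included) was counted for a gene when its summit lay no farther than 2000 bp upstream or 500 bp downstream from the gene's 5' end. The pooled candidates had a median signal of 9.02 and a highest of 174, where the signal is the authors' own value per peak, relative to a control, on a scale that is not stated. The 414 reproducible peaks, the authors' optimal set after comparing the replicates by irreproducible discovery rate (IDR), had a lowest signal of 28.2. Each replicate list held 30000 candidates. Signal scales differ between lists, so a rank (1 = highest signal) is given for each replicate. The read depth behind a peak is unknown, and genes and peaks are not biological replicates, so no test was made and values are given beside those of all protein-coding genes.

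A smaller share of histone genes than of genes in general had any candidate, while a larger share had a reproducible one. A candidate lay in the window of 29 of 81 histone genes, or 35.8% (exact Clopper-Pearson 95% interval 25.4 to 47.2%), against 53.5% of all protein-coding genes. A reproducible peak lay in the window of 5 histone genes, or 6.17%, against 1.75% of all genes, and these 5 genes shared 3 peaks. A candidate among the 2000 highest pooled signals lay at 10 histone genes, or 12.3%, against 6.73%. The share with a candidate that overlapped one in each replicate list was 21.0% (17 genes), against 20.2%, and so stood at the background. The narrower window of 1000 bp before to 200 bp after the 5' end left 19 histone genes with a candidate (23.5%, against 33.4% of all genes) and 11 with one in both replicates (13.6%, against 2394 of 19973 genes in all). Among genes with a candidate, the median of the highest signal was 12.3 in histone genes and 9.74 in all genes. A peak shared by several genes counts once for each gene in these medians, and several of the stronger histone gene peaks are shared.

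The lists of the single replicates gave similar counts. Replicate 1 had a candidate in the windows of 31 histone genes (38.3%, against 56.4% of all genes), and replicate 2 in those of 28 (34.6%, against 55.2%). A further 9 of the 81 genes had a candidate in a replicate list and none in the pooled list, against 5098 of 19973 genes in all. No candidate in any of the 3 lists was found for 43 of the 81, against 4188 of 19973. Overlapping windows of neighbours count a peak more than once. The 29 genes therefore stand for 26 distinct candidates, or 0.201 per kb of the 129 kb that the windows cover, against 0.290 per kb for all genes.

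Of the core histones, H4 and H2B genes had a candidate in 6 of 16 each, H2A genes in 5 of 17 and H3 genes in 4 of 15. Linker histone H1 genes had one in 6 of 9, the single H2A.Z gene had one, the H3.3-type genes in 1 of 5 and the unplaced genes in 0 of 2. The share of all protein-coding genes with a candidate, 53.5%, lies within the interval for H1 genes (66.7%, 29.9 to 92.5%), and the classes are too small to be ordered. The reproducible peaks lay in the windows of 2 H4 genes (his-37 and his-67), 2 H2A genes (his-35 and his-68) and htz-1. No H1, H2B, H3 or H3.3-type gene had a reproducible peak, which 1.75% of all genes had.

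**Figure D1:**
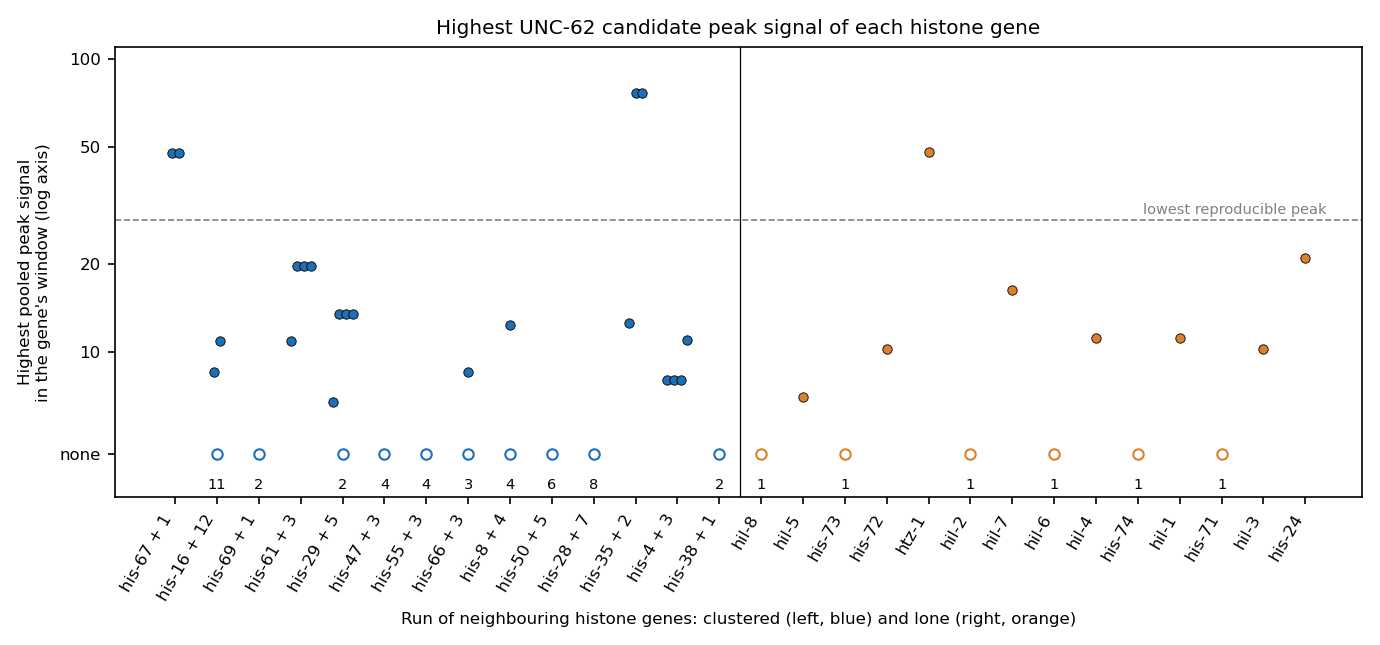
Highest pooled peak signal (log axis) in the window of each histone gene, one point per gene, grouped by run (clustered, blue, left; lone, orange, right); each run is named by its first gene and the number of further genes, and open circles with a number give the genes with no candidate. The his-35, his-67 and htz-1 loci stand above the lowest reproducible signal of 28.2 (dashed line), and the runs starting with his-50 and his-28 have no candidate at any gene.

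The strongest histone gene peak lay at his-37, an H4 gene at the edge of a 3-gene run. The peak (chrV:9546839-9547174) had a pooled signal of 76.8, rank 30, with its summit 98 bp upstream of the his-37 5' end. Its overlapping candidates ranked 33 in replicate 1 (signal 49.6) and 47 in replicate 2 (signal 25.4), so it was near the top of both lists. The same summit lay 1719 bp upstream of his-35, an H2A gene, beyond its head-to-head partner his-41 (H2B). C50F4.6 starts 915 bp from the summit, nearer than his-41 and his-35. In the printed sequence the peak holds 1 TATAAA and 1 GGGGACAC, 2 of the words also found in the his-10/his-9 interval. The interval shared by his-35 and his-41 held no summit, and the highest candidate of his-41 had a signal of 12.6 (rank 4505) and lay nearer to mdf-1 (203 bp) than to his-41 (1107 bp).

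The htz-1 peak is named for the gene whose window holds it. That gene encodes H2A.Z, the variant that marks the nucleosomes around many promoters. The peak (chrIV:4445772-4446107) had a pooled signal of 48.1, rank 115. Its candidates ranked 261 in replicate 1 (signal 23.5) and 192 in replicate 2 (signal 15.4), so both replicates had it among their 300 highest. The summit lay 276 bp upstream of htz-1 and 200 bp from the 5' end of wapl-1, which runs in the other direction and encodes the worm counterpart of the cohesin release factor WAPL. The lists do not say which of the neighbours, if either, the peak belongs to.

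The third reproducible peak lay between his-67 (H4) and his-68 (H2A), the only head-to-head pair here that joins an H4 to an H2A gene. The peak had a pooled signal of 47.7, rank 117, and its candidates ranked 145 in replicate 1 (signal 30.7) and 250 in replicate 2 (signal 14.1). Its summit was 219 bp upstream of his-67 and 150 bp upstream of his-68. The pair is isolated from the large clusters, its interval of 368 bp is the longest of all pairs, and its closest relative among the other intervals differs by 125 single-base edits. The 200 bases around its summit hold 2 GAGAGA, 1 TATAAA and 2 GGGGACAC.

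**Figure D2:**
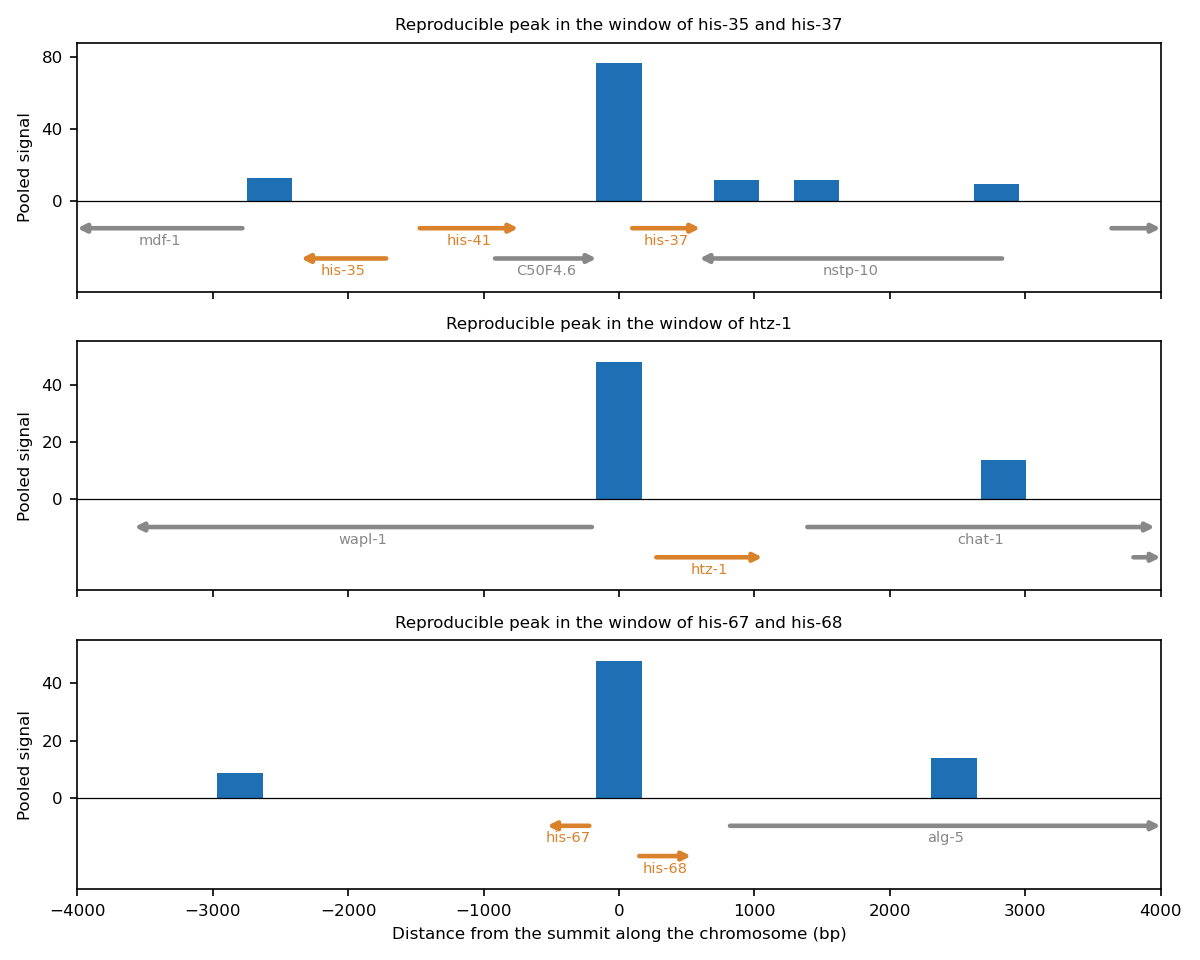
Pooled candidate peaks (blue bars, height is pooled signal, width is the peak) and genes (arrows in the direction of transcription; histone genes orange, others grey) from 4000 bp before to 4000 bp after the summits of the 3 reproducible peaks. The tallest bar of each panel has a signal of 76.8 at his-37, 48.1 at htz-1 and 47.7 between his-67 and his-68, and the other candidates nearby are lower.

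Below the reproducible set, the highest signal was at an H1 gene. his-24, which encodes a linker histone known for roles in germline chromatin, had a candidate 5 bp downstream of its 5' end with a pooled signal of 21.0, rank 830. Its overlapping candidates ranked 883 in replicate 1 and 2913 in replicate 2. The window of his-24 also held a replicate 2 candidate of rank 1639 that did not overlap the pooled peak. hil-7 had a candidate 109 bp upstream with a signal of 16.3, rank 1768, which overlapped rank 754 of replicate 1 and no candidate of replicate 2. These are the 2 H1 genes with a candidate among the 2000 highest.

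The other H1 genes had weaker candidates or none. hil-4 had a signal of 11.2 (rank 6931, 182 bp upstream), hil-1 had 11.2 (rank 6974, 94 bp downstream), hil-3 had 10.3 (rank 9350, 94 bp downstream) and hil-5 had 7.03 (rank 25838, 1868 bp upstream). The peaks of hil-4, hil-1 and hil-3 overlapped a candidate of replicate 1 only, at ranks 3404, 1489 and 15045, and that of hil-5 overlapped one of replicate 2 only, at rank 15897. hil-2, hil-6 and hil-8 had no pooled candidate, although hil-2 had one of rank 15383 in replicate 2. The window of hil-4 also held a replicate 2 candidate, at rank 24031, that did not overlap its pooled peak. The gene his-24 is therefore the 1 H1 gene of 9 (11.1%, against 20.2% of all genes) whose pooled candidate overlapped one in both replicates. The 9 are too few to be set apart from that share, and all 9 are lone genes.

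Of the H3.3-type genes, which encode the replacement form of H3, his-72 alone had a pooled candidate. It lay 282 bp upstream with a signal of 10.3, rank 9446, and overlapped rank 11171 of replicate 1 and rank 27025 of replicate 2. The window of his-72 also held stronger replicate candidates that did not overlap this peak, at rank 9339 in replicate 1 and rank 4398 in replicate 2. his-69, his-70, his-71 and his-74 had none in the pooled list. his-71 had a candidate in replicate 1 at rank 16912 and his-74 in replicate 2 at rank 26880. The windows of these 5 genes had a median of 99.9% words found once, so their sequence could be told apart by short reads. his-73, which is unplaced, had no candidate in any list, nor had his-39 a pooled one.

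**Figure D3:**
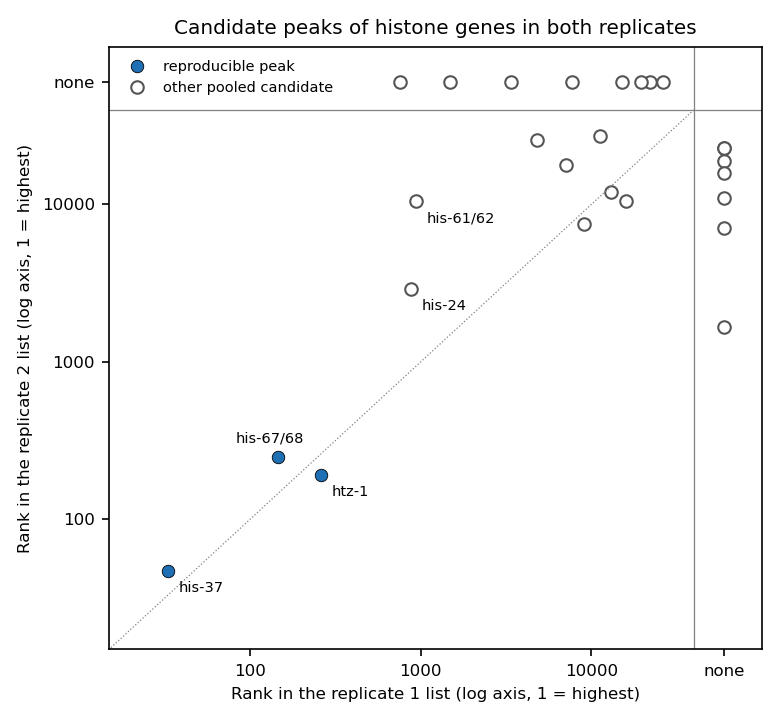
Rank of the best overlapping candidate in the replicate 1 list (x) and the replicate 2 list (y), both log axes with 1 as the highest signal, for the 26 distinct pooled candidates of histone genes; the outer strips hold peaks with no overlap in that replicate and the dotted line marks equal ranks. The 3 reproducible peaks (filled) rank 33 to 261 in replicate 1 and 47 to 250 in replicate 2, and the his-24 and his-61 peaks come next.

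Below these peaks the ranks in the 2 replicates lay farther apart. Of the 26 distinct candidates, 11 (42.3%) overlapped a candidate in both replicates, against 30.9% of all pooled candidates. Replicate 1 had a counterpart of 19 (73.1%, against 67.4% of all pooled candidates) and replicate 2 of 18 (69.2%, against 53.7%), and 0 had none in either, against 9.72%. Of the 26, 6 were among the 2000 highest of the pooled list, which by definition holds 2000 of the 28005 candidates in all. Among the 2000 highest of both replicates were 3 of the 26, and the count over all candidates was not made. The peak nearest to the reproducible set after his-24 was that of his-61 and his-62, at rank 942 in replicate 1 and 10457 in replicate 2. A histone gene had the nearest 5' end to 22 of the 26 summits and another gene to 4, namely those of htz-1, his-41 and his-42 and 1 shared by his-29 and his-32.

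The share with a candidate was lower in clustered than in lone genes, with intervals that overlap. A candidate lay at 21 of 67 clustered genes (31.3%, interval 20.6 to 43.8%), against 8 of 14 lone genes (57.1%, interval 28.9 to 82.3%), beside 53.5% of all protein-coding genes. The intervals treat genes as independent, which overlapping windows are not. Counted by distinct peaks, clustered genes had 17 candidates in 94.3 kb (0.180 per kb) and lone genes 9 (0.257 per kb), beside 0.290 per kb for all genes. Runs of 4 or more had a candidate at 16 of 58 genes (27.6%), and runs of 2 or 3 at 5 of 9 genes (55.6%). By this share, lone genes and the short runs stood near all genes, and the long runs below them. A reproducible peak lay at 0 of the 58 genes and at 4 of the 9, which share 2 peaks, beside 1.75% of all genes. At that share few such genes would be found among 58, so the 0 does not set the long runs apart from genes in general. In a window from 1000 bp before to 200 bp after the 5' end, the share was 17.9% in clustered genes, 50% in lone genes and 33.4% in all genes.

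Sequence uniqueness moved with these counts. Over the whole genome 92.1% of 36-base words, read on either strand, occurred once. The median window was 57.4% unique in histone genes and 100% in all genes. It was 45.3% in clustered and 99.9% in lone genes, 26.0% in runs of 4 or more and 95.8% in runs of 2 or 3. Words of 50 bases gave a median of 61.0% for histone genes. Windows of histone genes were also richer in G and C, with a median of 41.1% against 35.3% in all genes. How far repeated sequence accounts for the missing candidates was not tested.

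Within windows of like uniqueness the shares of histone genes and of all genes were closer, lower for histone genes in the least unique bin and higher in the other 2, and each interval of the histone genes includes the share of all genes. In windows under 50% unique, 2 of 34 histone genes (5.88%) had a candidate, against 50 of 600 genes in all (8.33%). From 50 to 90%, 12 of 25 histone genes (48%) had one, against 914 of 2531 (36.1%). At 90% or more, 15 of 22 histone genes (68.2%) had one, against 9723 of 16842 (57.7%). In this last bin 5 histone genes (22.7%) had a reproducible peak, against 326 of all genes (1.94%), and those 5 genes are the ones that share the 3 peaks described above. The bins were set after the signals had been seen.

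**Figure D4:**
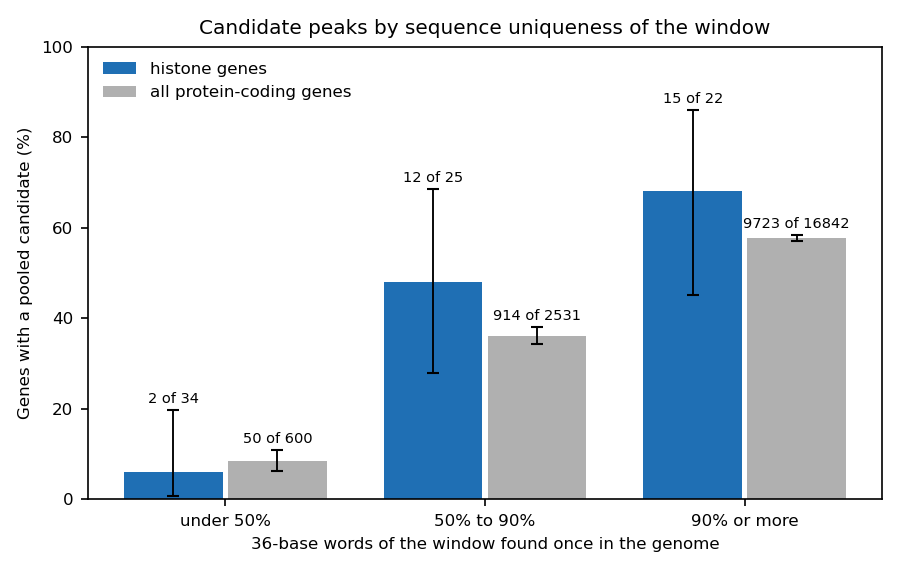
Share of genes with a pooled candidate in the window (bars from 0, with exact 95% binomial intervals that treat genes as independent) for histone genes (blue) and all protein-coding genes (grey), by the share of 36-base words of the window found once in the genome. Both rise over the bins, with 5.88%, 48% and 68.2% of histone genes against 8.33%, 36.1% and 57.7% of all genes.

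The lists as a whole hold almost no peak in repeated sequence. Only 46 of the 28005 pooled candidates (0.164%) and 1 of the 414 reproducible peaks had under 50% of their words found once. The 26 candidates of histone genes had a median of 100% and a lowest value of 83.1%, and 22 reached 90% or more. The window was 0% unique at 14 histone genes. The promoter, taken as 250 bases before to 50 after the 5' end, was 0% unique at 34, and 0 of those 34 had a summit within 300 bp of the 5' end. The same count was not made for all genes, so this 0 has no background beside it. Some of the 34 promoters lie in pair intervals of identical sequence and are not independent.

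**Figure D5:**
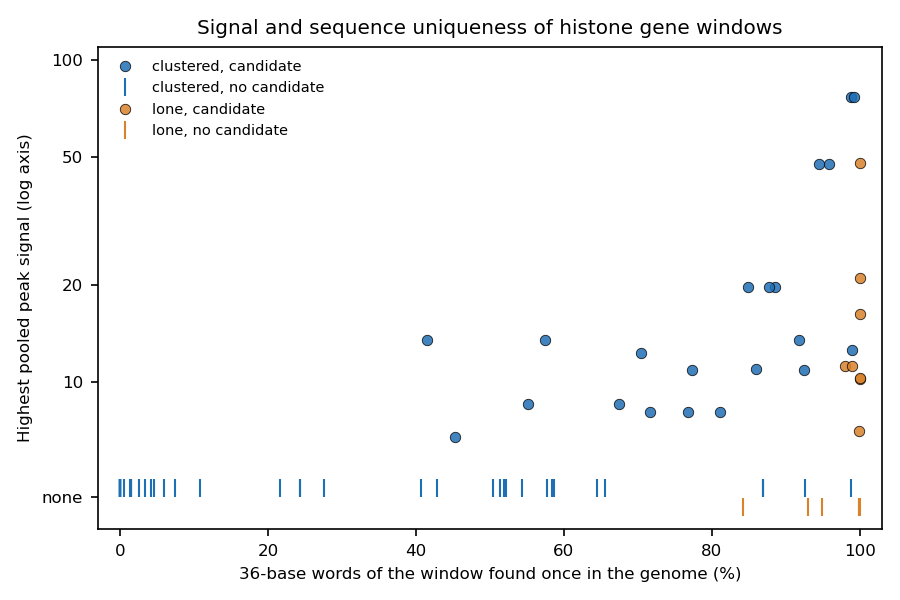
Highest pooled peak signal (log axis) against the percentage of 36-base words of the window found once in the genome, one mark per histone gene (clustered blue, lone orange; ticks at the bottom are genes with no candidate). The least unique window with a candidate is that of his-34, at 41.6%, and only ticks lie to its left, while the 5 genes with signals from 47.7 to 76.8 all lie in windows that are more than 90% unique.

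The 10 runs of 4 or more genes span 55.3 kb in all and held 7 summits inside them. Of the runs, 6 held no summit inside and 4 had no candidate in the window of any gene. The largest, 13 genes on chromosome II (chrII:13817760-13828697), is 7.05% unique and held 0 summits inside, with 2 genes, his-15 and his-42, reached by candidates outside the span. The 6-gene run that starts with his-50 on chromosome V is 0% unique, and its nearest pooled candidate was 35303 bp away. The 8-gene run that starts with his-28 is 1.08% unique, and its nearest was 3570 bp away. In these runs an absence of binding and an absence of reads that can be placed cannot be told apart.

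The run of his-61, his-62, his-60 and his-59 on chromosome IV is the most unique of the long runs, at 83.3%, and all 4 of its genes had a candidate. Its strongest peak (chrIV:7486253-7486588) had a pooled signal of 19.7, rank 968, and a summit 204 bp from his-61 (H2A) and 124 bp from his-62 (H2B). It also fell in the window of his-59 (H3), 1828 bp away. The highest candidate of his-60 (H4) had a signal of 10.9, rank 7684. In the 6-gene run that starts with his-29, which is 50.2% unique, a peak of signal 13.5, rank 3476, lay 264 bp from his-31 (H4) and 58 bp from his-32 (H3) and reached the window of his-34 (H2B). It ranked 7128 in replicate 1 and 17742 in replicate 2, well down both lists.

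Of the 58 genes of long runs, 42 had no pooled candidate, and the remaining genes with one had candidates of low rank. his-7 (H2A) had rank 4817 at 1266 bp upstream, his-2 (H3) rank 7523 at 1268 bp and his-42 (H3) rank 7686 at 967 bp. his-64, his-15, his-1, his-3, his-4 and his-29 had highest signals from 6.75 to 8.59, all under the pooled median of 9.02. Over all 29 genes with a candidate, the summit of the highest lay within 300 bp of the 5' end at 16 and more than 900 bp upstream at 13. Some of these genes share a peak, and the same split was not made for all genes. The 300 bp limit was chosen after the signals had been seen.

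Of the 31 head-to-head pairs (62 genes), 14 join H3 to H4, 16 join H2A to H2B, and 1 is his-67/his-68. The intervals between their 5' ends were 227 to 368 bp long with a median of 258 bp, and 16 had the same sequence as at least 1 other. Pooled summits lay in 5 of the 31. All 5 were among the 11 intervals that were 50% unique or more, and the 20 less unique intervals held 0. The 20 include copies of the same sequence, so they are not independent. The count was not made for head-to-head intervals of other genes, so these numbers have no background beside them. The pairs with a summit were his-67/his-68, his-61/his-62, his-31/his-32, his-4/his-3 (rank 18879) and his-60/his-59 (rank 27929).

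No summit lay in 6 of the 11 more unique intervals. The his-8/his-7 interval differs from the printed his-20/his-19 interval by 13 edits, is 79.4% unique and held no pooled summit. The his-6/his-5 interval is 85.6% unique, the his-63/his-64 interval 85.4%, and the his-35/his-41, his-2/his-1 and his-38/his-40 intervals 100%, again with none. Of the 6 more unique pairs without a summit, then, 3 have an interval of unique words throughout and 3 an interval that is partly repeated.

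TGACAG, the core recognised by MEIS-type homeodomain proteins, was rare at histone promoters. On both strands of the 300-base promoters it was present at 3 histone genes (3.70%), against 9.73% of all genes. The 3 are lone genes, and 0 of 67 clustered genes and 0 of 31 pair intervals held it. Within 100 bp of the summit it occurred in 3 of the 26 histone gene candidates, against 7.97% of all pooled candidates and 11.6% of reproducible peaks. The peaks at hil-7 and hil-3 and a weak one by his-60 (rank 23232) held it, and the 3 reproducible histone gene peaks did not. TGATNNAT, the site type of PBC and Hox proteins, was found at 7 histone promoters (8.64%), against 23.7% of all.

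GAGAGA, a word recognised by GAGA-type factors in flies, was found at 35 histone promoters (43.2%), against 21.8% of all. It was present in 12 of 17 H2A and 11 of 16 H2B promoters, and in 4 of 15 H3 and 5 of 16 H4 promoters. Near summits it occurred in 7 of the 26 histone gene candidates, in 14.6% of all pooled candidates and in 50.7% of reproducible peaks. Among the 3 reproducible histone gene peaks, his-67/his-68 held 2 copies, htz-1 held 1 and his-37 held 0. The word was thus in 2 of the 3.

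The core promoter words were common. TATAAA, the TATA box, was found at 51 histone promoters (63.0%), against 38.0% of all, and in 24 of 31 pair intervals, 10 of which held 2 or more. CCAAT, the site of NF-Y, was found at 43 (53.1%), against 45.7%, and in 17 intervals. ATTTGCAT, the octamer of vertebrate H2B promoters, was found at 0, against 2.87% of all. Near summits, TATAAA and CCAAT each occurred in 8 of the 26 histone gene candidates, beside 20.1% and 37.0% of all pooled candidates. Matches of different words may overlap, and identical copies of a promoter carry identical words, so these counts are not of independent sequences.

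The word GGGGACAC was added after the printed sequences had been compared. It was present at 44 of 81 histone promoters (54.3%), against 107 of 19973 promoters in all (0.536%), so that 41.1% of the promoters that hold it belong to histone genes. By class it was at 13 of 17 H2A, 12 of 16 H2B, 8 of 15 H3 and 10 of 16 H4 promoters, and at 1 of 9 H1, 0 of 5 H3.3-type and 0 of 1 H2A.Z promoters. Clustered genes had it at 43 of 67 and lone genes at 1 of 14, the lone gene being his-24. It stood in 21 of 31 pair intervals, 12 of them H2A/H2B and 8 H3/H4. These counts use no ChIP signal. The word, however, came from the printed histone sequences, some of them taken around peak summits, so its share at histone promoters is not independent of that choice.

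The pairs with and without the word divide the summits as follows. Of the 5 pair intervals with a pooled summit 4 held GGGGACAC, and his-31/his-32 did not. Near summits it was found in 5 of the 26 histone gene candidates, in 0.271% of all pooled candidates and in 1.21% of reproducible peaks. The 5 were the peaks of his-37, his-67/his-68, his-24, his-4/his-3 and his-60/his-59, which range from rank 30 to rank 27929. The word was picked from printed sequences that include the his-37 peak, so these counts do not test it. A match is a description of the sequence and not evidence of a bound factor.

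Histone pathway genes outside the naming rule, including those for centromeric H3, had a candidate in a similar share to genes in general. Of 21 listed genes for chaperones, deposition factors, histone mRNA processing and centromeric H3, 12 had a candidate (57.1%, beside 53.5% of all genes) and 2 a reproducible peak (9.52%, beside 1.75%). The 2, lin-53 and rba-1, encode RbAp46/48-type histone-binding proteins and share 1 peak with a signal of 31.7, rank 319. Its summit lay 227 bp upstream of lin-53 and 1880 bp upstream of rba-1, and its candidates ranked 213 in replicate 1 and 7492 in replicate 2. cdl-1, which encodes the stem-loop binding protein of histone mRNA, had a candidate with a signal of 12.7, rank 4348. The centromeric H3 genes hcp-3 and cpar-1, the H3.3 chaperone gene hira-1 and the H3/H4 chaperone gene asfl-1 had none.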

How the data were processed

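ChIP-seq peak lists of 2 replicates were analysed. The authors deposited, per the labels and accompanying notes, narrowPeak lists for each replicate, for the pooled alignments and for the optimal IDR set, and the deposited signal of each peak is relative to a control file. The aligner, peak caller, IDR threshold, read length and handling of reads with several places are not stated in the sources used here. Only ce11 lists were used, and the 4 lists of build ce10 were not. Gene models came from Ensembl release 115 and names and classes from RefSeq, matched by gene ID, except that his-24 was placed with H1 by its symbol. All 81 genes matched a RefSeq symbol of their own, whereas 14 Ensembl names are borne by 36 of them, so RefSeq symbols are printed. The gene record starts at the start codon for 65 of the 81 (80.2%, against 23.5% of all genes), so distances of histone genes are from there. Replicate counterparts overlapped by at least 1 bp. The 36-base words were counted over the whole genome, both strands. Python 3.11.15, numpy 2.4.6, scipy 1.17.1 and edlib 1.3.9.post1 were used, with matplotlib 3.10.9 for figures. The assignment of summits and the word counts were tested on simulated data. There, 200 of 200 summits planted inside or outside a window were assigned as planted, and 965 of 965 repeated words were found.

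The genes, lists and motifs were chosen with earlier results of these data known; GGGGACAC, the uniqueness bins and the printed sequences were chosen after seeing the values. Named genes are those with a reproducible peak, the 15 with the highest pooled signal, every hil gene, htz-1, his-24, his-35 and his-69 to his-74, and pathway genes with a reproducible peak; others named were chosen after their values were seen. Alternatives changed the window, the 5' end, the list, the signal threshold, the cluster distance, the counterpart rule and the word length.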

Additional observations from a re-analysis of the deposited data

How the results depend on the processing

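Of 37 alternative values over 8 results, 33 kept within the bounds set for them and 4 moved. The bounds were wide: 20.6 to 43.8% for the clustered share, 28.9 to 82.3% for the lone share and 10.3 to 19.7 for the median signal. A value within them can therefore still differ from the main one. A window from 1000 bp upstream to 200 bp downstream, which by construction holds fewer summits, gave 19 histone genes with a candidate in place of 29, 11 with a candidate in both replicates in place of 17, and 17.9% of clustered genes with a candidate in place of 31.3%; 33.4% of all genes had one in that window. Keeping the upper part of each list by signal, 50% of its peaks, gave 11 genes with a candidate in both replicates, from fewer candidates. It also left 22 histone genes with a candidate in place of 29 and 22.4% of clustered genes in place of 31.3%, which stayed within the bounds. One replicate list alone, limited to as many peaks as the list it replaces, gave 28 to 30 genes with a candidate, 31.3 to 32.8% of clustered genes and 50 to 57.1% of lone genes. Its top 414 peaks reached 5 genes and 3 distinct peaks; this follows from the ranks of those peaks in each replicate and does not test reproducibility, which needs both. The median signal and the count in both replicates were not run without a replicate, since scales differ between lists and the count needs both. No paired analysis was possible because there is only 1 group. The unknown depth limits every absent peak: it was not detected in these lists.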
